A study of Mus musculus with 16 samples.

Results

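Mammary adipose tissue of formerly obese mice that had undergone vertical sleeve gastrectomy (DIO-VSG) was compared with that of mice that had never been obese (CON-LFD). The members were chosen by sample title, as the 4 DIO-VSG and the 4 CON-LFD libraries, 8 of the 16 RNA-Seq libraries of the study, and all genes were examined. All animals were female wild-type C57BL/6N mice that arrived at 8 weeks of age. CON-LFD mice received the low-fat diet D12450J throughout and a sham operation. DIO-VSG mice first became obese on the diet D12492, with 60% of its energy from fat, then lost part of the stomach by surgery and were given the low-fat diet. The remaining groups, used here to place genes and gene lists and to estimate the spread in the model of all 16 libraries, stayed on the high-fat diet (DIO-HFD) or were returned to the low-fat diet (DIO-LFD), each with a sham operation. Every mouse of all 4 groups, controls included, carried a tumor: E0771 cells, a mouse mammary cancer line, were injected into the fourth mammary fat pad 22 weeks after randomization. The fat pad on the opposite side, taken at the endpoint, was profiled. The labels also name the tumor line as the cell type, but the RNA came from normal mammary tissue. DIO-VSG differed from CON-LFD in earlier obesity, earlier high-fat feeding and surgery together, and these cannot be told apart in this comparison. Libraries carry separate animal numbers, so the spread within a group is between mice.

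The mammary fat pad of the mouse is a mixed tissue. Adipocytes fill most of it and store triglyceride, make fatty acids from glucose, burn branched-chain amino acids and secrete hormones such as leptin and adiponectin. The ducts hold a luminal and a basal epithelial layer, the stroma holds fibroblasts, vessels and macrophages, and the pad also contains a lymph node full of B and T cells. Its removal was not described in the methods. In bulk RNA, fewer cells of a type and less RNA per cell cannot be told apart.

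The 8 libraries held between 46951066 and 57355420 reads. Counting error was not separated from the spread between mice, and it weighs more in genes of low count. The most abundant transcript in each library was that of Scd1, a fatty acid desaturase, with between 2.24% and 6.69% of the reads. Adipoq, which encodes adiponectin and marks adipocytes, was at 78362, 92919, 59538 and 123530 normalized counts in the CON-LFD libraries and at 68644, 50432, 64592 and 66544 in the DIO-VSG libraries, so adipocytes were present in each. The epithelial marker Epcam was at 3980 or more in all 8. The CON-LFD libraries were far apart from each other in lymphoid RNA. A list score was the mean over its genes of the log2 value after subtraction of each gene's mean across the 16 libraries. For the B cell list it was −0.11, −4.81, 1.70 and −2.85 in CON-LFD replicates 1 to 4 and 1.71, 1.59, 1.68 and 1.5 in DIO-VSG replicates 1 to 4. CON-LFD replicate 3 was thus like the DIO-VSG libraries in this score, and replicates 2 and 4 were far below them. The median SD over genes on the log2 scale was 0.346 in CON-LFD and 0.211 in DIO-VSG.

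The comparison asked how far the tissue after surgical weight loss still differed from that of never-obese mice. Of 21218 genes tested, 0 (0%) passed an adjusted P value of 0.05 with limma, and with limma's voom on the recovered reads there were also 0. The smallest limma adjusted P was 0.234, shared by 6 genes, and 2999 further genes shared the next value, 0.268. The fold changes below are therefore descriptions with their errors, and no gene is called changed. Unadjusted P values were below 0.05 for 3771 genes (17.8% of those tested), and for 3736 with voom. Of the 3771, 2169 were higher in DIO-VSG (10.2% of genes tested) and 1602 lower (7.55%). The share that was higher was 57.5%, against 77.0% with voom, which scales libraries differently and moved the median over all genes from −0.02 to 0.09. In 549 genes (2.59%) the 4 DIO-VSG values were all above the 4 CON-LFD values, and in 941 genes (4.43%) they were all below.

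The count depended on which control mouse was included. Without CON-LFD replicate 3, the control closest to DIO-VSG, 873 genes passed the adjusted threshold, 598 higher and 275 lower, and 6481 had an unadjusted P value below 0.05. Of those 873, 862 also had an unadjusted P value below 0.05 with all libraries. Without CON-LFD replicate 2 there were 2 (Gm15432 and Rpl21-ps11) and 2062 genes, and leaving out CON-LFD replicate 4 gave 0 and 1899. Without DIO-VSG replicate 1 there were 0 and 2129, and without DIO-HFD replicate 1, which bears on the estimate of spread, 1 gene (Pon1) passed the adjusted threshold. Weighting each library by its estimated quality (limma's array weights, here called library weights) gave 4226 genes past the adjusted threshold, 2429 higher and 1797 lower. These weights ran from 0.222 to 10.9, and the second smallest, 0.384, was that of CON-LFD replicate 3. When the B cell score was a covariate, 1 gene (Gm15432) passed and 1051 had an unadjusted P value below 0.05, 42.7% of them higher. When CON-LFD replicates 2 and 4 were both left out, a choice made after seeing the data, 1 gene (Gm15432) passed and 651 had an unadjusted P value below 0.05.

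**Figure D1:**
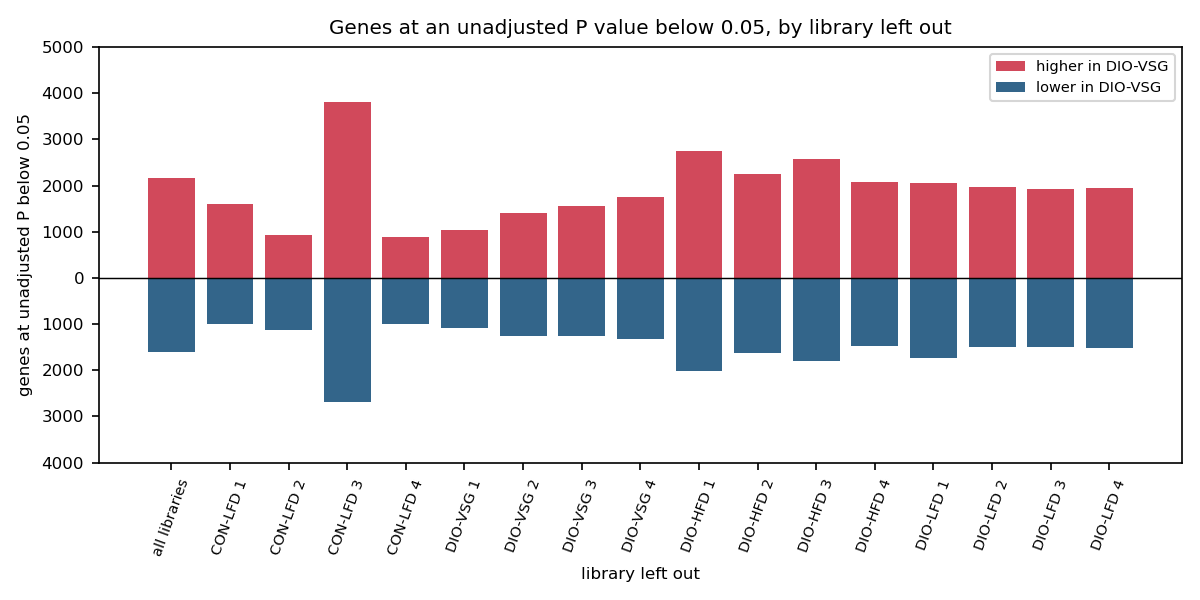
Number of genes at an unadjusted P value below 0.05 (vertical axis) in fits of all libraries and of all but 1 library (horizontal axis), higher in DIO-VSG above the line and lower below it. Leaving out CON-LFD replicate 3 gave 6481 genes against 3771 with all libraries, and leaving out CON-LFD replicate 4 gave 1899.

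Pon1 was the protein-coding gene with the smallest P value. It encodes paraoxonase 1, an esterase best known as a serum enzyme carried on high-density lipoprotein (GRCm38, chr6:5168090-5193946, minus strand). Its normalized counts were 219, 170, 144 and 217 in the CON-LFD libraries and 44.6, 36, 28.7 and 37.2 in the DIO-VSG libraries. The groups did not overlap, and the highest DIO-VSG value was far below the lowest control. The means were 187 ± 36.8 (SD, n = 4) and 36.6 ± 6.49, a log2 difference of −2.32 (SE 0.38, 95% interval −3.13 to −1.5, limma adjusted P = 0.234). It passed the adjusted threshold in 5 of 29 alternative analyses, and the log2 difference stayed between −2.44 and −2.21 when any 1 library was left out. In DIO-HFD the mean was 37.5 ± 20.8, and in DIO-LFD it was 108 ± 27.6. Against these groups, DIO-VSG differed by 0.16 (limma adjusted P = 0.846) and −1.51 (limma adjusted P = 0.509). The neighbouring paralogs were nearer to control. Pon3 was at 4621 ± 1075 in CON-LFD and 2845 ± 433 in DIO-VSG (log2 difference −0.68, SE 0.25, limma adjusted P = 0.268), with DIO-VSG replicates 3 and 4 above the lowest control, and Pon2 differed by −0.29 (SE 0.18, limma adjusted P = 0.384).

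Slc5a8, a sodium-coupled transporter of monocarboxylates such as lactate and butyrate (chr10:88885992-88929515, plus strand), followed. It was at 1958, 1784, 1319 and 1894 normalized counts in CON-LFD and at 723, 369, 712 and 893 in DIO-VSG. No DIO-VSG mouse reached the lowest control. The log2 difference was −1.42 (SE 0.25, limma adjusted P = 0.234), and it passed the threshold without CON-LFD replicate 3. In DIO-HFD and DIO-LFD the means were 1249 ± 383 and 1005 ± 124, so the lowest mean of the 4 groups was that of DIO-VSG. The direct differences from these groups were −0.92 (limma adjusted P = 0.246) and −0.64 (limma adjusted P = 0.509).

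By the rule for named genes, 12876 protein-coding genes with a mean of at least 100 normalized counts were ranked, and in 690 of them all DIO-VSG values lay below all control values. Since non-overlap chose these genes, it is a description. The matrix Gla protein gene Mgp, an inhibitor of calcification, was at 2055, 2193, 1157 and 3936 in CON-LFD and at 678, 951, 697 and 855 in DIO-VSG (log2 difference −1.43, SE 0.34). Foxc1, a forkhead transcription factor of mesenchymal development, was at 637 ± 165 and 325 ± 47.1 (−0.94, SE 0.22). Pak3, a p21-activated kinase, differed by −1.04, Prkar1b, a regulatory subunit of protein kinase A, by −0.57, Trim32, a ubiquitin ligase, by −0.40, and Ssbp3, a partner of LIM-domain transcription complexes, by −0.42. Others of this kind were Tmem144 (−0.94), Lzts3 (−0.70), Ccdc141 (−1.09), Lurap1l (−1.24), Epb41l4a (−1.16) and Nsmf (−0.62). All these had a limma adjusted P of 0.268. In Tmem144, DIO-VSG was at 62.2 to 77.2 against 112 or more in the controls, 89.8 or more in DIO-HFD and 87.9 or more in DIO-LFD.

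**Figure D2:**
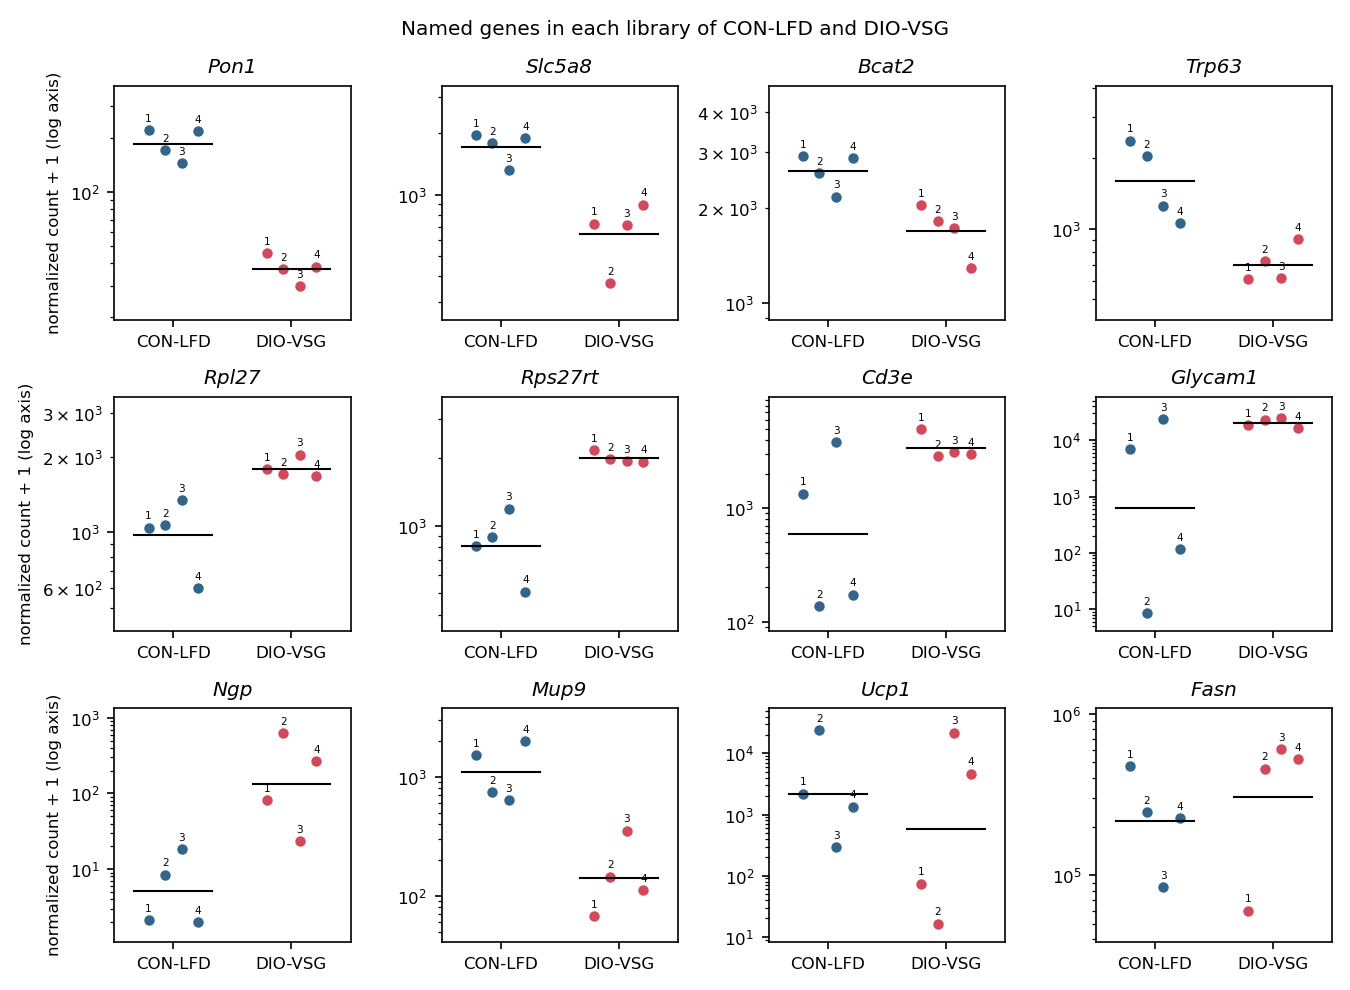
Normalized count plus 1 on a log axis (vertical) of 12 genes in each library of CON-LFD (blue) and DIO-VSG (red), with the replicate number above each point and a line at the mean of the log values. The 4 DIO-VSG values of Pon1 lie between 28.7 and 44.6, all below the lowest control of 144, whereas the control values of Cd3e reach from 136 to 3788.

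Cytosolic ribosomal proteins, the protein components of the ribosomes that translate nuclear mRNA, were higher in DIO-VSG in nearly every member. Of 72 tested members, 71 were higher in DIO-VSG and 1 was at −0.00 (Rpl29). The unadjusted P value was below 0.05 in 63 higher (10.2% of all genes) and 0 lower members, 0 passed the adjusted threshold, and in 40 the groups did not overlap (2.59% of all genes). The median log2 difference was 0.43, against −0.02 over all genes tested. Their summed normalized count was between 680000 and 937000 in the CON-LFD libraries and between 967000 and 1130000 in the DIO-VSG libraries. Of the 15 genes that the rule named as higher, 13 encoded such proteins or, in Rps27rt, a copy of one. The others were Mad2l1bp, whose product silences the spindle checkpoint (0.47, SE 0.12), and Ppp1r3f, a glycogen-targeting subunit of protein phosphatase 1 (0.71, SE 0.19). Many of these genes have near-identical processed pseudogenes, and the values of single members depend on how reads were divided between copies.

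The mRNAs of ribosomal proteins are known for a run of C and T bases at their first transcribed bases, the terminal oligopyrimidine motif, which ties their translation to nutrient signalling. Such runs are shown as a feature of this gene class that was known beforehand, and they say nothing about the difference between the groups. In RefSeq start sites (GRCm38.p6), 52 of the 72 genes were found, with 62 promoters. A run of at least 8 C or T bases within 20 bases before and 50 bases after the start was present in 42 of the 62 (67.7%). In the cytosolic group the median longest run was 10 bases, and in all promoters it was 6. Runs of that length were in 11 of 39 promoters of mitochondrial ribosomal protein genes (28.2%) and in 8332 of 32851 promoters in all (25.4%). Of 8 named ribosomal protein genes searched that had a single promoter in the table, 5 held such a run and 3 did not. The stretches around the 5 runs, with the run in capitals, were as follows.
Fau (chr19:6057937-6057966, plus strand): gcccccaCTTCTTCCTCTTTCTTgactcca
Rpl37 (chr15:5116631-5116660, plus strand): ggcgggggtgCTTTCTCTTCCggtctcttt
Rpl37a (chr1:72711274-72711303, plus strand): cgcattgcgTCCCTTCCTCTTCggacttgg
Rpl9 (chr5:65391383-65391412, minus strand): acgaaagacgTTCTCTCTTTgccccatcta
Rpl18 (chr7:45718062-45718091, plus strand): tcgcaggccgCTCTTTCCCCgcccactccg
The runs were 16 bases long in Fau, 13 in Rpl37a, 11 in Rpl37 and 10 in Rpl9 and Rpl18. The run of Fau began 3 bases before the RefSeq start and that of Rpl18 1 base after it, whereas those of Rpl37a, Rpl37 and Rpl9 began 23, 28 and 29 bases after it and so were not at the first transcribed bases of these models. They are matches of letters, and transcription starts in this tissue were not measured.

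Fau encodes a fusion of a ubiquitin-like protein with ribosomal protein S30. It was at 832, 899, 1271 and 936 normalized counts in CON-LFD and at 2099, 1491, 1454 and 1766 in DIO-VSG (log2 difference 0.79, SE 0.17, limma adjusted P = 0.268). Rpl27 was at 1043, 1069, 1345 and 597 in CON-LFD and at 1788, 1707, 2043 and 1680 in DIO-VSG (0.89, SE 0.19). Rps27rt was at 812, 886, 1191 and 508 in CON-LFD and at 2174, 1976, 1940 and 1929 in DIO-VSG (1.30, SE 0.30). In all 3 genes the highest control was CON-LFD replicate 3, the control richest in B cell RNA. The differences of Rpl37, Rpl19, Rpl37a, Rpl21, Rpl9 and Rpl18 were 0.52, 0.55, 0.54, 0.64, 0.65 and 0.49, with a limma adjusted P of 0.268 for each. Against DIO-HFD they were 0.14, 0.16, 0.11, −0.02, 0.20 and 0.23, and against DIO-LFD 0.18, 0.18, 0.16, −0.04, 0.15 and 0.22, with limma adjusted P values of 0.410 or more. Apart from Rpl18 in DIO-LFD, which was about midway, the means of these genes in DIO-HFD and DIO-LFD were closer to DIO-VSG than to CON-LFD. So were those of Rpl27 (1675 ± 284 and 1586 ± 46.4). Fau, at 1302 ± 303 in DIO-HFD and 1271 ± 76.8 in DIO-LFD, was closer to CON-LFD in both groups. Rps27rt was closer to DIO-VSG in DIO-HFD (1500 ± 774) and closer to CON-LFD in DIO-LFD (1311 ± 141). Over the list of cytosolic ribosomal proteins DIO-VSG was above DIO-HFD and DIO-LFD by a median of 0.24 and 0.26.

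Lymphoid RNA moved with this group. Cytosolic ribosomal proteins scored −0.22, −0.29, 0.08 and −0.43 in the CON-LFD libraries and 0.37, 0.26, 0.20 and 0.14 in the DIO-VSG libraries, and the control of highest score was again replicate 3. With the B cell score included as covariate, 69 of the 72 cytosolic ribosomal proteins were higher, with a median of 0.19. For 23 of the 72 the unadjusted P value was below 0.05, against 1051 of all 21218 genes in that fit, 449 higher and 602 lower. Without CON-LFD replicates 2 and 4 the median of the list was 0.31. Over the fits that left out 1 library it ranged from 0.38 to 0.53. In the fit that left out CON-LFD replicate 3, 27 of the 72 members passed the threshold, against 873 of all 21218 genes, 598 higher and 275 lower. The 40 mitochondrial ribosomal proteins did not share the difference: 12 were higher and 28 lower, with 0 at an unadjusted P value below 0.05 (17.8% of all genes) and a median of −0.04, which was 0.07 under voom, 0.08 under the B cell covariate and 0.01 without CON-LFD replicate 2.

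Processed pseudogenes, of any parent gene, and small nucleolar RNAs also had medians above 0. So did most other noncoding types, among them microRNAs (0.44), unprocessed pseudogenes (0.13) and long intergenic RNAs (0.08). Long noncoding RNAs of bidirectional promoters were at −0.09. Of 1294 processed pseudogenes, 778 were higher in DIO-VSG, with a median of 0.12. The unadjusted P value was below 0.05 in 172 higher ones (10.2% of all genes) and 53 lower ones (7.55% of all genes). Of 32 small nucleolar RNAs, which guide chemical modification of ribosomal RNA, 26 were higher and 8 of these had an unadjusted P value below 0.05 (median 0.43). Among 15463 protein-coding genes the median was −0.05.

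Markers of B cells, T cells and the lymph node had the largest positive median differences of the 44 lists. All 24 T cell genes were higher in DIO-VSG (median log2 difference 2.79) and 22 had an unadjusted P value below 0.05 (10.2% of all genes were higher at this threshold). All 22 B cell genes were at or above control (median 3.70), with 18 at an unadjusted P value below 0.05. In B cells the groups did not overlap in 3 genes and in T cells in 0, against 2.59% of all genes. Of 16 genes of lymph node stroma and homing, 15 were higher (median 2.75). None of these genes passed the adjusted threshold.

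Cd3e, a subunit of the T cell receptor complex, was at 1342, 136, 3788 and 171 normalized counts in CON-LFD and at 4974, 2868, 3102 and 2988 in DIO-VSG (log2 difference 2.53, SE 1.22, limma adjusted P = 0.289). Glycam1, a sialomucin of the high endothelial venules through which lymphocytes enter lymph nodes, was at 6880, 7.42, 23463 and 114 in CON-LFD and at 18379, 23192, 24584 and 16212 in DIO-VSG (5.01, SE 2.14, limma adjusted P = 0.268). In both genes, replicates 2 and 4 of CON-LFD were the lowest and replicate 3 reached the DIO-VSG range. Ccl21a, the chemokine that draws T cells into lymph nodes, differed by 3.62, Ltb, which encodes lymphotoxin beta, by 3.02, and Ptprc, which encodes the leukocyte antigen CD45, by 2.00 (limma adjusted P = 0.268, 0.268 and 0.270). Under the B cell covariate Cd3e and Ptprc were at −0.31 and −0.04.

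No B or T cell marker was at 0 in any of the 8 libraries, and in the lymph node list Chst4 was at 0 in 1 or more controls. The summed normalized count of the B cell list was between 9850 and 227000 in CON-LFD and between 173000 and 221000 in DIO-VSG. For the T cell list these ranges were 2720 to 87600 and 77600 to 120000, and for the lymph node list 51100 to 134000 and 119000 to 136000. In each of the 3 lists the sums of DIO-VSG lay in a narrower range than those of the controls, and DIO-VSG replicate 1 had the highest T cell score of the 8 libraries (2.09). With the B cell score included as covariate, which takes out the measure itself for the B cell list, the medians were 0.01 for B cells, 0.09 for T cells and −0.04 for lymph node stroma and homing. Without CON-LFD replicates 2 and 4 the medians were 0.88, 0.89 and 0.76. Against DIO-HFD they were 2.57, 2.20 and 2.32, and against DIO-LFD 1.18, 1.41 and 1.12. Whether the amount of lymph node in the sample differed was not tested.

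Antigen receptor segments were higher as well. Of 178 immunoglobulin variable segments, 177 were higher in DIO-VSG (median 2.81) and 46 had an unadjusted P value below 0.05 (10.2% of all genes), and of 75 T cell receptor variable segments, 74 were higher (median 2.35). Of 12 genes of MHC class II presentation, 12 were higher (median 0.94), led by H2-Ob, a modulator of peptide loading in B cells (3.69, SE 1.51). Under the B cell covariate these values were −0.12 for MHC class II presentation and 0.08 for H2-Ob, and without CON-LFD replicate 2 the median was 0.53. Of 14 cytotoxic lymphocyte genes, 12 were higher (median 1.01), among them Prf1, which encodes perforin (2.27, SE 0.84). That covariate gave −0.19 for cytotoxic lymphocytes and 0.36 for Prf1, and without CON-LFD replicates 2 and 4 the median was 0.30. Plasma cell genes had a median of 1.53 with all libraries, 0.22 without CON-LFD replicate 2, −0.24 without CON-LFD replicates 2 and 4 and −1.17 for plasma cells under the B cell covariate.

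The octamer bound by Oct factors, ATGCAAAT or ATTTGCAT on the opposite strand, is a known element of B cell promoters. It was searched for in the 300 bases from 250 before to 50 after each RefSeq start. It was in 2 of 18 promoters of the B cell list (11.1%; 15 of 22 genes were found), in 570 of 32851 promoters in all (1.74%) and in 0 of the ribosomal ones. The B cell promoters that hold it are shown with the octamer in capitals.
Blnk (chr19:40994333-40994362, minus strand): tactggaagggATTTGCATgcccaataagg
Vpreb3 (chr10:75948244-75948273, plus strand): tcagtgggctgATTTGCATgctctattgtg
Blnk encodes an adaptor of B cell receptor signalling, and Vpreb3 a protein of the assembling receptor. Blnk was at 1075, 197, 3137 and 2509 in CON-LFD and at 3061, 2902, 2913 and 2504 in DIO-VSG (log2 difference 1.32, SE 0.78, limma adjusted P = 0.356, and −0.27 under the B cell covariate). Vpreb3 was at 61.8, 7.42, 212 and 5.02 in CON-LFD and at 277, 214, 227 and 232 in DIO-VSG (3.05, SE 1.27, limma adjusted P = 0.268). In CON-LFD replicate 4, Blnk was within the DIO-VSG range while Vpreb3 was close to the floor of 3 reads.

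**Figure D3:**
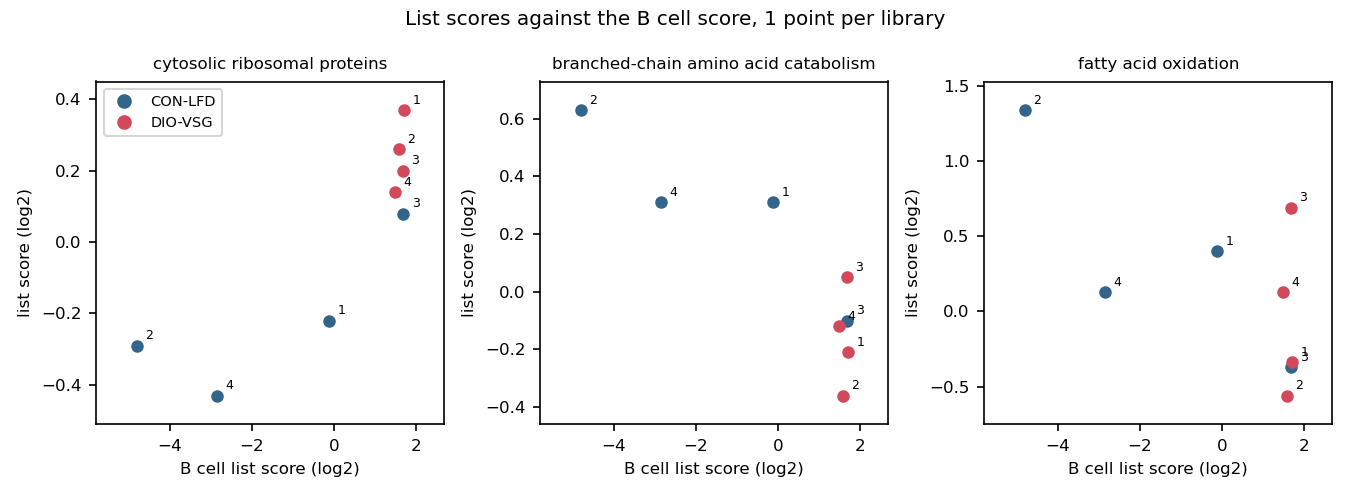
Scores (mean log2 deviation from the 16-library mean) of 3 gene lists on the vertical axes against the B cell score on the horizontal axis, 1 point per library with its replicate number, CON-LFD in blue and DIO-VSG in red. The ribosomal score of CON-LFD replicate 3 is 0.08, below the lowest DIO-VSG score of 0.14 at a like B cell score.

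Neutrophil granule genes were higher in DIO-VSG on a different pattern. Of 13 tested members, 10 were higher (median 1.89), 5 at an unadjusted P value below 0.05 (10.2% of all genes), and in 2 the groups did not overlap (2.59% of all genes). Ngp, a neutrophil granule protein, was at 1.1, 7.42, 17.5 and 1.0 normalized counts in CON-LFD and at 80.9, 631, 22.6 and 268 in DIO-VSG (log2 difference 4.73, SE 1.57, limma adjusted P = 0.268). Camp, which encodes the antimicrobial cathelicidin, was at 2.21, 1.06, 8.30 and 2.01 in CON-LFD and at 48.8, 58.5, 10.3 and 89.6 in DIO-VSG (3.5, SE 1.06, limma adjusted P = 0.268). Control values this low are at or near the floor of 3 reads in most libraries, so both fitted differences depend on the pseudocount. S100a9, a subunit of calprotectin, was at 104 ± 119 in CON-LFD and 924 ± 1325 in DIO-VSG (3.15, SE 1.14), and replicate 2 at 2905 was the highest of the latter. Without DIO-VSG replicate 2 the median of neutrophils was 0.73, and with the B cell score included as covariate it was 0.68. The summed level was 6530 to 18100 in CON-LFD and 7470 to 17900 in DIO-VSG, so the sum, which the more abundant members set, overlapped.

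Of 20 macrophage genes, 15 were lower, 1 at an unadjusted P value below 0.05 (7.55% of all genes), with a median of −0.41 that was 0.09 without CON-LFD replicate 4. Cd163, a scavenger receptor of resident macrophages, was at 4173 ± 2854 and 2602 ± 2290 (log2 difference −0.92, SE 0.61, limma adjusted P = 0.400). Lipid-associated macrophage genes, known from obese adipose tissue, had a median of −0.15, with 6 of 16 higher. The sign of lipid-associated macrophages turned with the B cell covariate (0.30), without CON-LFD replicates 2 and 4 (0.14) and without CON-LFD replicate 4 (0.08), DIO-VSG replicate 1 (0.01) or DIO-VSG replicate 3 (0.03). Timd4, a phosphatidylserine receptor of resident macrophages, was at 1554, 26.5, 4541 and 369 in CON-LFD and at 2293, 4660, 2484 and 2817 in DIO-VSG, in the order of the B cell score among controls (2.51, and −0.62 under that covariate).

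Catabolism of the branched-chain amino acids leucine, isoleucine and valine was lower in DIO-VSG in nearly every enzyme. Of 18 members, 17 were lower, 9 at an unadjusted P value below 0.05 (7.55% of all genes were), and in 5 the groups did not overlap (4.43% of all genes). The median log2 difference was −0.47. Bcat2, the mitochondrial aminotransferase that begins the pathway, was at 2907, 2572, 2169 and 2865 in CON-LFD and at 2041, 1817, 1726 and 1288 in DIO-VSG (log2 difference −0.62, SE 0.20, limma adjusted P = 0.268). Ivd, isovaleryl-CoA dehydrogenase of leucine breakdown, was at 10248, 11086, 7852 and 9606 in CON-LFD and at 7151, 6105, 7155 and 6456 in DIO-VSG (−0.52, SE 0.15). Acadsb, the dehydrogenase of the isoleucine branch, was at 9699 ± 1544 and 6305 ± 393 (−0.61, SE 0.20). In all 3 the control nearest to DIO-VSG was replicate 3. Against DIO-HFD, Bcat2, Ivd and Acadsb in DIO-VSG differed by 0.09, 0.12 and −0.04, and against DIO-LFD by −0.60, −0.48 and −0.35 (limma adjusted P of 0.509 or more in each). These values stand beside means of 1617 ± 335 in DIO-HFD and 2642 ± 668 in DIO-LFD for Bcat2.

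The branched-chain amino acid catabolism list also moved with lymphoid RNA. Its median was −0.10 with the B cell score included as covariate, −0.29 without CON-LFD replicates 2 and 4, and −0.61 to −0.35 when 1 library was left out. Its scores were 0.31, 0.63, −0.10 and 0.31 in CON-LFD and −0.21, −0.36, 0.05 and −0.12 in DIO-VSG, so that replicate 3 of each group overlapped the other group.

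Most members of other adipocyte programs also had lower values, few of them at an unadjusted P value below 0.05. Of 20 adipocyte identity genes, 19 were lower (median −0.46) and 0 had an unadjusted P value below 0.05 (7.55% of all genes). Pparg, the master transcription factor of adipocytes, was at 7941 ± 2082 and 5265 ± 1977 (log2 difference −0.63, SE 0.33, limma adjusted P = 0.313). Pnpla2, the lipase that begins triglyceride breakdown, was at 91555, 126148, 73406 and 98344 in CON-LFD and at 54969, 54696, 72276 and 67101 in DIO-VSG, without overlap (−0.63, SE 0.34, limma adjusted P = 0.322). Lep, which encodes leptin, was at 34589, 31744, 32586 and 67714 in CON-LFD and at 28191, 29410, 9321 and 39535 in DIO-VSG (−0.75, SE 0.61, limma adjusted P = 0.490). Its groups overlapped through DIO-VSG replicate 4, and against DIO-HFD, at 107117 ± 91560, the difference was −1.81 (limma adjusted P = 0.288). Adipoq differed by −0.46 (SE 0.31), Plin1, which coats lipid droplets, by −0.54 (SE 0.31) and Fabp4, a fatty acid carrier, by −0.29 (SE 0.36).

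With the B cell score included as covariate the adipocyte identity median was 0.01, and Adipoq, Fabp4 and Lep were at 0.11, 0.32 and 0.04. Fabp4 was also at 0.01 under quantile normalization. Lipolysis and lipid droplet genes (14 of 15 lower, median −0.46) and fatty acid uptake genes (14 of 15 lower, median −0.40) held 0 and 2 members with an unadjusted P value below 0.05 (7.55% of all genes were lower at this threshold). They had medians of 0.06 and 0.16 with that covariate. The 2 uptake genes, in which the groups did not overlap (4.43% of all genes), were Lrp1, a lipoprotein receptor (−0.85, SE 0.27), and Apoc1, an apolipoprotein (−0.98, SE 0.39). Igfbp5, a binding protein of insulin-like growth factors, was at 54155 ± 33165 and 22867 ± 2368, also without overlap (−1.06, SE 0.55, limma adjusted P = 0.306).

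The lipid-burning programs varied with single mice. All 21 fatty acid oxidation genes were lower in DIO-VSG (median −0.38), 1 of them, Eci2, at an unadjusted P value below 0.05 (7.55% of all genes), and the median was −0.08 without CON-LFD replicate 2 and 0.13 with the B cell score included as covariate. Of 17 thermogenic adipocyte genes, 16 were lower (median −0.65), but 0 had an unadjusted P value below 0.05. Ucp1, the uncoupling protein of brown and beige fat, was at 2182, 24043, 292 and 1343 in CON-LFD and at 72.6, 15.3, 21836 and 4658 in DIO-VSG. DIO-VSG replicates 1 and 2 were below every control, and DIO-VSG replicates 3 and 4 lay within the control range (log2 difference −1.85, SE 2.03, 95% interval −6.19 to 2.49, limma adjusted P = 0.612), and the difference was 0.11 under the B cell covariate. The thermogenic adipocytes median was 0.27 under that covariate, 0.09 without CON-LFD replicates 2 and 4, 0.13 without CON-LFD replicate 2 and −1.31 without DIO-VSG replicate 3. Nuclear-encoded oxidative phosphorylation was lower in 46 of 49 genes by a median of −0.12, with 0 at an unadjusted P value below 0.05, and the median for oxidative phosphorylation, nuclear encoded, was 0.05 without CON-LFD replicate 2, 0.07 without CON-LFD replicates 2 and 4 and 0.16 under the B cell covariate.

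De novo lipogenesis, the making of fatty acids from acetyl-CoA, did not differ in one direction. Of 21 genes, 12 were higher and 9 lower, 0 at an unadjusted P value below 0.05 (17.8% of all genes), and the median of 0.14 was −0.08 without CON-LFD replicate 3, −0.02 without DIO-VSG replicate 4 and −0.04 under library weights. Fasn, fatty acid synthase, was at 474207, 245936, 84150 and 226136 in CON-LFD and at 60159, 455881, 604113 and 522963 in DIO-VSG. DIO-VSG replicate 1 was below every control while the other 3 were above the second highest control (log2 difference 0.49, SE 1.02, limma adjusted P = 0.803, −0.07 under library weights). Acaca, acetyl-CoA carboxylase, was at 74055, 52504, 23297 and 44973 in CON-LFD and at 19535, 83395, 118106 and 128629 in DIO-VSG (0.65, SE 0.59, limma adjusted P = 0.534). Acly, ATP citrate lyase, differed by 0.99 (SE 0.68), Scd1 by −0.30 (SE 0.68, 0.06 under the B cell covariate) and the lipogenic factor Mlxipl (ChREBP) by −0.47 (SE 0.32). Srebf1 was at −0.04 (95% interval −0.46 to 0.37), and its sign turned under voom (0.07), quantile normalization (0.03), with the B cell score included as covariate (0.12) and in 4 of the 16 fits without 1 library (0.01 to 0.06). Against DIO-HFD, the DIO-VSG libraries were higher by 3.91 in Fasn and 3.11 in Acaca (limma adjusted P = 0.246 and 0.243), and the list median was 1.53. The intervals of the differences from control therefore span both signs, and do not show that the groups are alike.

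**Figure D4:**
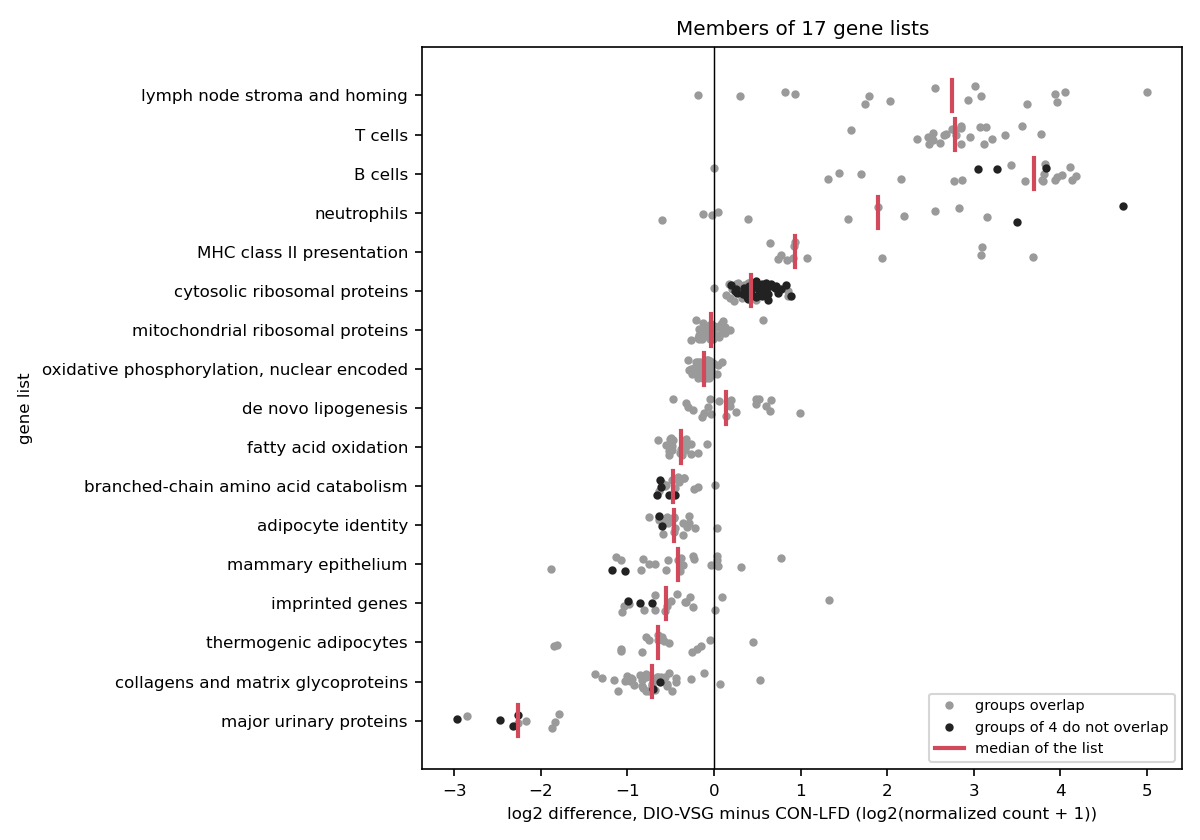
Log2 difference between DIO-VSG and CON-LFD (horizontal axis) of each tested member of 17 gene lists (vertical axis), black where the groups of 4 do not overlap, with the list median in red. Cytosolic ribosomal proteins lie in a narrow band around 0.43, and the medians of B and T cell genes are 3.70 and 2.79.

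Major urinary proteins, small secreted lipocalins that bind pheromones and are made mostly by liver, were the list with the most negative median. Of the 22 symbols of the family list, 10 were tested, and all 10 were lower in DIO-VSG, 5 with an unadjusted P value below 0.05 (7.55% of all genes) and 4 without overlap (4.43% of all genes). The median log2 difference was −2.26, and it ranged from −2.61 to −1.70 when 1 library was left out. With the B cell score included as covariate the median of the major urinary proteins was −2.07, and without CON-LFD replicates 2 and 4 it was −1.89. Mup9 was at 1521, 743, 637 and 1988 normalized counts in CON-LFD and at 66.4, 144, 352 and 110 in DIO-VSG (log2 difference −2.97, SE 0.93, limma adjusted P = 0.268). Mup11 was at 138, 210, 82.1 and 258 in CON-LFD and at 13.5, 50.4, 46.2 and 27.6 in DIO-VSG (−2.32, SE 0.95). Every DIO-VSG value of both genes was below every control. Mup3 differed by −1.79 (SE 0.67), with overlap through DIO-VSG replicate 3, and Mup7 by −2.85 (SE 1.05), with DIO-VSG replicate 4 at 0. In DIO-HFD, Mup9 was at 18.8 ± 19.8 and Mup11 at 1.65 ± 1.90, and in DIO-LFD they were at 311 ± 243 and 173 ± 164. The DIO-VSG libraries thus lay above DIO-HFD by 3.41 and 3.93 (limma adjusted P = 0.246 and 0.243) and below DIO-LFD by −0.45 and −1.52 (limma adjusted P = 0.831 and 0.541). The genes are near-identical copies, and the division of reads between them is uncertain. The family sum was 2590 to 7820 in CON-LFD and 385 to 1690 in DIO-VSG.

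Collagens and matrix glycoproteins, the fibrous scaffold of the pad, were lower in 38 of 40 members. The median log2 difference was −0.72, and it stayed between −0.94 and −0.50 when 1 library was left out. In 6 members the unadjusted P value was below 0.05 (7.55% of all genes), and 2 were without overlap, a share near the 4.43% of all genes. Bgn, which encodes the proteoglycan biglycan, was at 26251, 18881, 18169 and 31937 in CON-LFD and at 15041, 14758, 11235 and 16611 in DIO-VSG (log2 difference −0.70, SE 0.24, limma adjusted P = 0.268). Eln, which encodes elastin, was at 4533 ± 766 and 2969 ± 617 (−0.62, SE 0.24). These were the members without overlap. Col1a1, the main chain of type I collagen, was at 64256, 17987, 17930 and 89445 in CON-LFD and at 11849, 32451, 20093 and 38072 in DIO-VSG, with wide overlap (−0.66, SE 0.72, limma adjusted P = 0.608). Thbs2, a thrombospondin, differed by −0.85 (SE 0.45) and Fbln1, which encodes fibulin, by −1.37 (SE 0.57), where CON-LFD replicate 4 at 4295 stood above the rest. Against DIO-HFD the median of collagens and matrix glycoproteins in DIO-VSG was −0.95, with Bgn at −0.94 and Thbs2 at −1.94 (limma adjusted P = 0.243 for both), and with the B cell score included as covariate the median against CON-LFD was −0.51.

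Imprinted genes, expressed from 1 parental allele and many of them regulators of growth, were lower in 17 of 20 members. The median log2 difference was −0.55, 9 had an unadjusted P value below 0.05 (7.55% of all genes), and in 3 the groups did not overlap (4.43% of all genes). Dlk1, an inhibitor of adipocyte differentiation made by preadipocytes, was at 51.9, 51.9, 33.2 and 85.4 normalized counts in CON-LFD and at 25.9, 31.5, 26.7 and 21 in DIO-VSG (log2 difference −0.99, SE 0.33, limma adjusted P = 0.268). Grb10, an adaptor that dampens insulin receptor signalling, was at 5228 ± 1444 and 3101 ± 291 (−0.72, SE 0.24). Nnat, which encodes neuronatin, was at 44610, 41716, 35672 and 52342 in CON-LFD and at 39945, 11852, 14505 and 26586 in DIO-VSG (−1.06, SE 0.35), with overlap through DIO-VSG replicate 1. The imprinted genes median was −0.23 with the B cell score included as covariate and −0.36 without CON-LFD replicates 2 and 4.

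Mammary epithelium was lower in most members. Of 23 genes, 18 were lower, 5 with an unadjusted P value below 0.05 (7.55% of all genes were), and the median log2 difference was −0.42. The members ranged from −1.88 in Krt15, a keratin, to 0.78 in Pgr, the progesterone receptor, both named after their values were seen and both with overlapping groups. Trp63, the transcription factor of basal cells, was at 2377, 2038, 1256 and 1058 in CON-LFD and at 609, 727, 615 and 902 in DIO-VSG (log2 difference −1.18, SE 0.31, limma adjusted P = 0.268). Krt14, the basal keratin, was at 4232, 4825, 2103 and 2669 in CON-LFD and at 1494, 1486, 1882 and 1567 in DIO-VSG (−1.03, SE 0.42). Neither overlapped. Acta2, the actin of myoepithelial and smooth muscle cells, differed by −0.84 (SE 0.29). The luminal keratin gene Krt8 was at 13438 ± 3486 and 11544 ± 3951 (−0.24, 95% interval −1.08 to 0.59), and Epcam differed by −0.56 (SE 0.30, limma adjusted P = 0.314). Whether basal and luminal genes differed from each other was not tested. With the B cell score included as covariate Trp63 and Krt14 were at −1.25 and −1.10, and the mammary epithelium median was −0.29. Muc15, a membrane mucin, was at 4321, 2696, 1199 and 1873 in CON-LFD and at 847, 637, 1006 and 920 in DIO-VSG (−1.43, SE 0.47). Markers of skin keratinocytes, which also make Krt14, were at a summed level of 1430 to 2900 in CON-LFD and 1240 to 2130 in DIO-VSG, with 4 of 9 tested members higher. Their part in the Krt14 difference was not tested.

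**Figure D5:**
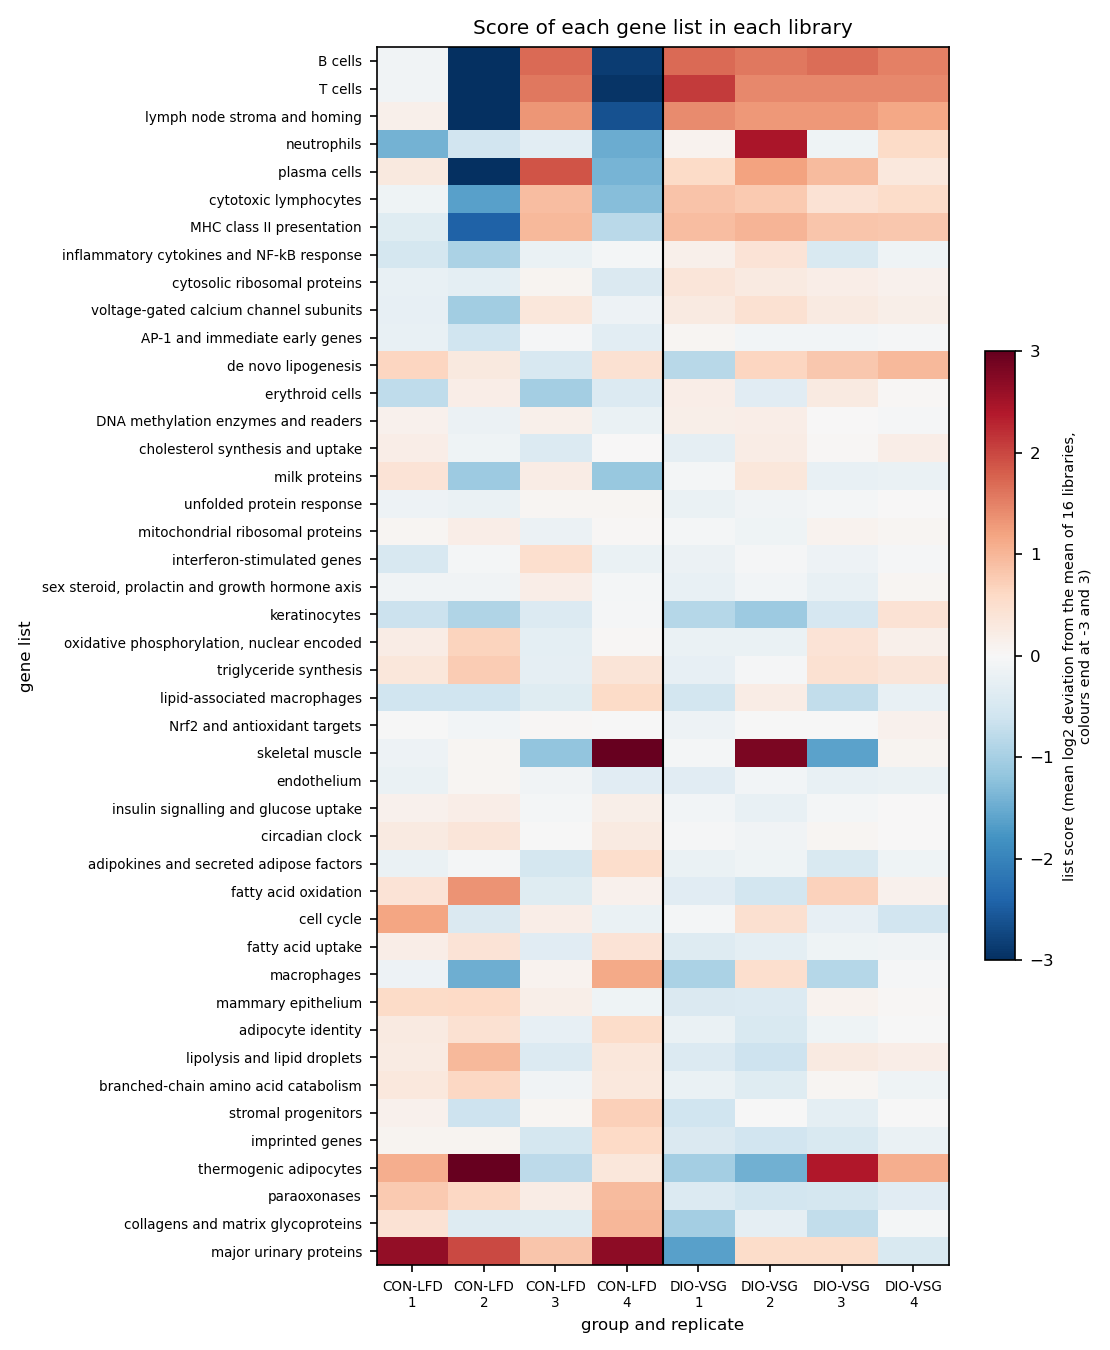
Score of each of 44 gene lists (rows, ordered by median log2 difference) in the 8 libraries (columns), red above and blue below the mean of the 16 libraries, with colours ending at −3 and 3. CON-LFD replicates 2 and 4 are blue in the lymphoid lists, where replicate 3 resembles the DIO-VSG libraries.

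Inflammatory cytokines and genes of the NF-kB response were higher in 18 of 24, with a median log2 difference of 0.48 and 6 at an unadjusted P value below 0.05 (10.2% of all genes). Il6, the cytokine interleukin-6, was at 0, 4.24, 1.84 and 4.02 normalized counts in CON-LFD and at 19.7, 13.5, 4.11 and 5.72 in DIO-VSG, near the floor in the controls (1.78, SE 0.60, limma adjusted P = 0.268). Relb and Nfkb2, the subunits of the alternative NF-kB pathway that is active in lymphoid organs, differed by 0.89 (SE 0.35) and 0.72 (SE 0.30). Relb was at 1626, 872, 2533 and 1140 in CON-LFD and at 3311, 2598, 2289 and 2481 in DIO-VSG, with replicate 3 again the highest control. The list of inflammatory cytokines and NF-kB response had a median of 0.07 with the B cell score included as covariate, and 0.04 against DIO-HFD. Among AP-1 and immediate early genes, 14 of 23 were higher (median 0.15), including the flow-responsive factor Klf2 (0.86, SE 0.25) and the antiproliferative Btg2 (0.68, SE 0.26). Interferon-stimulated genes had a median of −0.05, which was 0.06 under voom, 0.13 under library weights and 0.12 without CON-LFD replicate 3. In that list Ifit3b, an antiviral interferon-induced gene, was at 742, 988, 1086 and 825 in CON-LFD and at 517, 438, 495 and 578 in DIO-VSG, without overlap (−0.83, SE 0.29, limma adjusted P = 0.268).

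Smaller lists held single genes apart. Clock genes were lower in 16 of 19 (median −0.30), with the activator Arntl (BMAL1) higher at 317 ± 168 and 546 ± 66.9 (0.91, SE 0.34) and the repressor Nr1d2 lower by −0.37 (SE 0.18). The time of day of collection was not given in the labels. Among 18 voltage-gated calcium channel subunits, 12 were higher (median 0.36, −0.01 without CON-LFD replicate 2, −0.11 under the B cell covariate). Cacna1e was at 892, 796, 2749 and 1132 in CON-LFD and at 2916, 2377, 2219 and 2163 in DIO-VSG (0.98, SE 0.39), where only CON-LFD replicate 3 was in the DIO-VSG range. In DIO-HFD it was at 9159 ± 5210, and the log2 difference of DIO-VSG from it was −1.75 (limma adjusted P = 0.243). Cacna1i differed by 3.99 with all libraries and by 0.31 with the B cell score included as covariate. Cacna1c, the channel of smooth muscle and heart, was at 1098 ± 98.9 and 815 ± 76.3, without overlap (−0.43, SE 0.12). Among antioxidant genes, Slc7a11, the cystine transporter, differed by 2.80 (SE 1.00; 0.50 with the covariate), Gclc, which begins glutathione synthesis, by 0.46 (SE 0.18) and the glutathione transferase Gstm1 by −0.60 (SE 0.23).

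Lists with medians near that of all genes were cholesterol synthesis and uptake (0.05, −0.06 under library weights), DNA methylation enzymes and readers (0.09, −0.04 under the B cell covariate), the unfolded protein response (−0.02, 0.09 under voom), milk proteins (0.02, −0.51 under library weights), and the sex steroid, prolactin and growth hormone axis (−0.06, 0.05 under voom). Triglyceride synthesis (−0.15), insulin signalling (−0.24), endothelium (−0.22), Nrf2 and antioxidant targets (−0.18), adipokines (−0.37) and stromal progenitors (−0.52) were lower with 0 to 3 members at an unadjusted P value below 0.05 in that direction (7.55% of all genes). Under the B cell covariate the sign turned in triglyceride synthesis (0.24), endothelium (0.18) and adipokines (0.10), and in triglyceride synthesis also without CON-LFD replicates 2 and 4 (0.08). The cell cycle list was at −0.39, and at 0.02 without CON-LFD replicate 1, whose score of 1.19 was the highest. Skeletal muscle genes were scattered, with scores of 3.33 in CON-LFD replicate 4 and 2.82 in DIO-VSG replicate 2 against −1.60 to 0.08 in the remaining libraries. The median of erythroid cells was 0.14, and −0.16 without CON-LFD replicate 3.

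The 6 genes with a limma adjusted P of 0.234 were Pon1, Slc5a8, Gcom1 and the pseudogenes or predicted genes Gm15725, Gm15432 and Gm10269. The last 4 were named after their values were seen. Gcom1, for which the annotation gave no unique position, was at 82.8, 22.3, 20.3 and 31.2 normalized counts in CON-LFD and listed at 0 in all 4 DIO-VSG libraries. Against the floor of 3 reads per library, its DIO-VSG level was at least 12.6-fold lower than the control mean, and at least 6.52-fold lower than the lowest control. In DIO-HFD it reached from 0 to 12.3 and in DIO-LFD from 0 to 14.3. Gm15432, a processed pseudogene on chromosome X (chrX:29564014-29564208, minus strand), showed the opposite pattern, at 0, 20.1, 0 and 0 in CON-LFD and at 63.3, 68.4, 55.4 and 39.1 in DIO-VSG. It was at 26.2 to 123 in DIO-HFD and at 85.3 to 135 in DIO-LFD. Gm15725, a transcribed processed pseudogene (chr16:37882542-37883631, plus strand), was at 128 ± 57.1 in CON-LFD and 520 ± 239 in DIO-VSG, beside 731 ± 136 in DIO-HFD and 755 ± 85.6 in DIO-LFD (log2 difference 2.01 from CON-LFD, SE 0.33). In Gm15432 every library of the 3 groups that had been obese was above every control, and DIO-VSG lay wholly below DIO-LFD. In Gm15725 the means of these 3 groups were above that of the controls, with DIO-VSG the lowest of the 3. Gm10269 was at 684 ± 53.5 in CON-LFD and 1178 ± 193 in DIO-VSG (0.77, SE 0.14). Reads may be divided between a pseudogene and its parent gene, and these values are uncertain.

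Placed between the other groups, the genes named here fell into different patterns of means. Pon1, Ivd, Bcat2 and Acadsb were close to DIO-HFD and below both low-fat sham groups. Fasn, Acaca and Acly were close to DIO-LFD and above DIO-HFD. The Mup genes lay between DIO-HFD and CON-LFD, and Tmem144, Slc5a8, Foxc1, Ccdc141 and Mgp were lowest in DIO-VSG of the 4 groups. In the direct comparisons, 0 genes passed the adjusted threshold between DIO-VSG and DIO-HFD (2794 at an unadjusted P value below 0.05) or DIO-LFD (2061). The comparisons share the DIO-VSG libraries, so the values stand side by side and are no independent evidence of each other.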

How the data were processed

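Total RNA from the mammary fat pad opposite the tumor was sequenced in 16 libraries, 4 per group, and the 8 DIO-VSG and CON-LFD libraries were compared. Groups and replicate numbers came from the sample titles, and the animal number in a column name gave its sample (0 columns had none). Libraries were made by the authors with a stranded total RNA kit. The study's methods describe alignment with STAR to GRCm38, salmon against a Gencode annotation and summing to genes, whereas the submitters' processing notes name TopHat2 2.0.7, HTSeq 0.5.3p9 and mm10. Which of them made the table was not settled, and the division of reads between near-identical genes depends on it. Per the study's methods, the authors dropped genes with a summed count under 10, and the table was named as normalized with DESeq2 by the authors. The values the authors deposited, described as normalized counts, were on a log2 scale (5.36 to 21.85) after a variance-stabilizing transformation, which was not what the design assumed. The transformation was inverted to normalized counts for 23179 genes, and 100.0% of values were whole reads (tolerance 0.1) once the value of 1 read in each library was divided out. Library totals lay between 46907377 and 57610899 reads.

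A gene was tested if 4 or more libraries reached 10 normalized counts, which left 21218. The test was limma-trend in R 4.3.3 (limma version 3.58.1), applied to log2(normalized count + 1). All 16 libraries entered 1 model, in which group was the single term and the groups shared 1 estimate of spread. Tests were two-sided with Benjamini-Hochberg adjustment over all genes, and the threshold was an adjusted P of 0.05. Because of the added 1, log2 differences are too small for low genes. The fit was tested on simulated data. Tables and figures were made with Python 3.11.15, numpy 2.4.6 and pandas 2.3.3. Alternatives changed the model (voom), scale, pseudocount (0.5 or 8), filter, normalization, weights, libraries, replicate block, B cell covariate and predicted genes.

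Named genes were, first, the 15 higher and 15 lower protein-coding genes of smallest P value with a mean of at least 100 normalized counts and no overlap, second, the 3 genes of smallest P value in each of 44 lists (899 genes), and last, a set of marker genes. Those on which a result turned are printed, and 2 named genes are not reported here. Members and lists were chosen with earlier results of these data known, so no list is independent evidence. No 2 libraries were copies of each other. Positions are from GENCODE M21 (GRCm38), in which 22176 symbols (95.7%) were found once, and promoter sequences from RefSeq.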

Additional observations from a re-analysis of the deposited data

Results flagged for a closer look

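In 286 groups of 4 libraries, covering the printed genes and list scores, the highest or lowest library was tested for standing apart from the rest by Dixon's criterion (the gap to the nearest library over the range of the group). It did so in 18, and chance gives about 1 in 20 groups. Gene values are printed as normalized counts, and the criterion was applied to them on the log2 scale. No explanation was tested for any of them.

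In CON-LFD, replicate 3 stood apart in 7 of them: Rpl37a (6608), Mad2l1bp (494) and Btg2 (5893) were above the other controls, Nsmf (1985), Plin1 (55337) and Srebf1 (8923) below them, and the score of the sex steroid, prolactin and growth hormone axis (0.21) above. Its values lay toward those of DIO-VSG in Rpl37a, Mad2l1bp, Btg2, Nsmf and Plin1. CON-LFD replicate 4 stood apart above the others in Lep (67714), Fbln1 (4295) and Gstm1 (13372), and CON-LFD replicate 2 in the pseudogene Gm15432 (20.1), which was at 0 in the remaining controls.

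In DIO-VSG, replicate 1 stood apart in Cd3e (4974) and the T cell score (2.09), both above, and in Fasn (60159), below. Replicate 4 was above the others in Pon2 (3852) and Ccdc141 (686), replicate 2 below in Plin1 (39525), and replicate 3 below in Thbs2 (3764).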

How the results depend on the processing

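Over 29 alternatives, of which 28 were planned, the differences of the printed genes and the medians of the 44 lists changed sign most often when the B cell score was a covariate (28 of 143 values). They did so in 9 values without CON-LFD replicates 2 and 4, and in 6 with voom. That covariate gave 1 adjusted call and 1051 genes at an unadjusted P value below 0.05, of which 42.7% were higher. Without CON-LFD replicates 2 and 4, an alternative chosen after seeing the data, these numbers were 1, 651 and 39.9%. Voom gave 77.0% higher. Library weights gave 4226 and 7937 genes. The deposited log2 values gave 1 gene past the adjusted threshold (Pon1) and the fit of the 8 libraries 2 (Gcom1 and Pon1). When 1 library was left out, the genes past the adjusted threshold ranged from 0 to 873, those at an unadjusted P value below 0.05 from 1899 to 6481, and the share higher from 45.2% to 61.9%. The cause of these shifts was not tested.

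With the replicate number as a block, 0 genes were past the adjusted threshold and 3391 were below 0.05 unadjusted, 57.5% of them higher, and no call changed. The numbers were not taken to pair mice, since the correlation of deviations from the group means in same-numbered libraries of CON-LFD and DIO-VSG was 0.014, −0.149, −0.097 and 0.199.

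Printed genes that passed the adjusted threshold in an alternative had the sign they had with all libraries. With 4 mice per group and controls this far apart, even large differences in single genes did not pass with all libraries, such as 5.01 in Glycam1 and −2.32 in Pon1. A P value above the threshold does not show that groups are alike. Near the floor of 3 reads, as for Camp, Ngp, Il6 and Gcom1, depth limits the values.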
